A study of Caenorhabditis elegans with 3 samples.

Results

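The polyadenylated RNA of young adults of Caenorhabditis elegans was compared with that of mixed-stage embryos, gene by gene and then isoform by isoform. Estimated reads were summed per gene, divided by the library total to give a read share, and compared for the 8636 of 19194 genes in the series that had 20 or more reads over both libraries. The series sequenced native RNA strands on a nanopore device, a method that reads RNA without copying or amplification, with 1 library each of young adults, L1 larvae and mixed-stage embryos. Young adults were whole worms of the N2 strain, the standard wild type, and embryos were of the same strain; no mutation, transgene or treatment is named in the labels. The labels give no age in hours, no number of animals and no spread of embryonic ages, so the embryo library is an unresolved mix of stages and the young adult library a mix of all tissues, germline included.

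A hermaphrodite makes sperm first and then oocytes, which it loads with yolk made in the intestine. The adult carries a cuticle secreted by the epidermis. An embryo starts from the RNA the mother left in the egg, switches on its own genome, divides, gives cells their fates and closes an epidermis that secretes the first cuticle before hatching. In germ cells most of the X chromosome is kept silent, and many housekeeping genes lie on the autosomes.

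The young adult library held 1611049 estimated reads over 12614 genes and the embryo library 941707 over 12013. The compared genes took 98.8% of young adult reads and 98.02% of embryo reads; 139 genes entered with 20 reads and 130 stayed out with 19. A count of 0 allows up to 3 reads, which is 1.86 reads per 1000000 in young adults and 3.19 in embryos, so folds against 0 are given as at least the fold against 3 reads. A gene was called higher or lower in young adults where the bound nearest to 1 of the exact conditional binomial 95% interval of its share ratio was at least 2-fold from 1. Intervals, printed in brackets after a fold, cover counting error only. With 1 library per stage no difference has a replicate check and none has a p-value. In RNA of whole animals, fewer cells of a type and less RNA per cell cannot be told apart.

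The labels were first set beside marker genes of each stage. The 10 markers of the adult body, 6 yolk proteins, 3 adult collagens and a lectin, together had 22965 reads in young adults and 0 in embryos, with every one of the 10 at 0 in embryos. Together 9 sperm markers summed to 3103 reads in young adults and 14 in embryos, and 7 oocyte markers to 7334 in young adults and 544 in embryos. The 12 found of 13 markers of embryos that might lie inside adults summed to 377 reads in young adults and 6061 in embryos; 6 of them were at 0 in young adults. Of the 377 young adult reads, pal-1, whose RNA the mother supplies, gave 179 and lin-26, a factor of epithelia, gave 182. The embryonic cuticle collagen dpy-14 had 0 reads in young adults and 2600 in embryos, and the hatching protease hch-1 had 0 reads in young adults and 266 in embryos. In sum 4 gut markers had 5410 reads in young adults and 379 in embryos, most of them from the protease gene asp-1 with 4502 reads in young adults and 230 in embryos; the gut transcription factor gene elt-2 ran the other way, with 18 reads in young adults and 45 in embryos. In sum 3 hypodermis markers had 32 reads in young adults and 3391 in embryos. Most came from the collagen gene sqt-3, with 29 reads in young adults and 3191 in embryos. The marker dpy-7 had 0 reads in young adults and 200 in embryos, while rol-6 had 3 in young adults and 0 in embryos. The 3 body wall muscle markers summed to 846 reads in young adults and 570 in embryos and did not move together: unc-15 had 575 reads in young adults and 283 in embryos and unc-54 had 216 reads in young adults and 87 in embryos, while myo-3 had 55 reads in young adults and 200 in embryos. The 2 pharynx markers summed to 48 reads in young adults and 43 in embryos. The 4 neuron markers summed to 407 in young adults and 477 in embryos. Of these, snb-1 gave 393 in young adults and 438 in embryos, and rgef-1 had 0 reads in both libraries. The 2 male markers found had 1 read in young adults and 24 in embryos, all from her-1, while mab-3 had 0 reads in both libraries.

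Of the 8636 compared genes 1140, or 13.2%, were called higher in young adults and 2533, or 29.3%, were called lower. The median log2 ratio of young adult over embryo, with 0.5 read added to both libraries, was -0.71. This balance rests on the scaling. TMM factors, which centre the bulk of genes rather than the totals, raised every log2 ratio by 0.78, and 1663 genes (19.3%) were then higher and 1504 (17.4%) lower. Lower genes made up 68.96% of calls with library totals and 47.5% with TMM factors. All 1140 higher calls and 1504 of the lower calls were the same under both scalings. The 50 genes with most reads took 24.8% of young adult reads and 13.99% of embryo reads. Lists of genes are described below by their counts and medians beside these values for all genes. A gene enters with 20 reads over both libraries, so one with few reads in 1 library entered through the other and had to differ, and a one-sided count describes a list without being evidence for it.

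**Figure D1:**
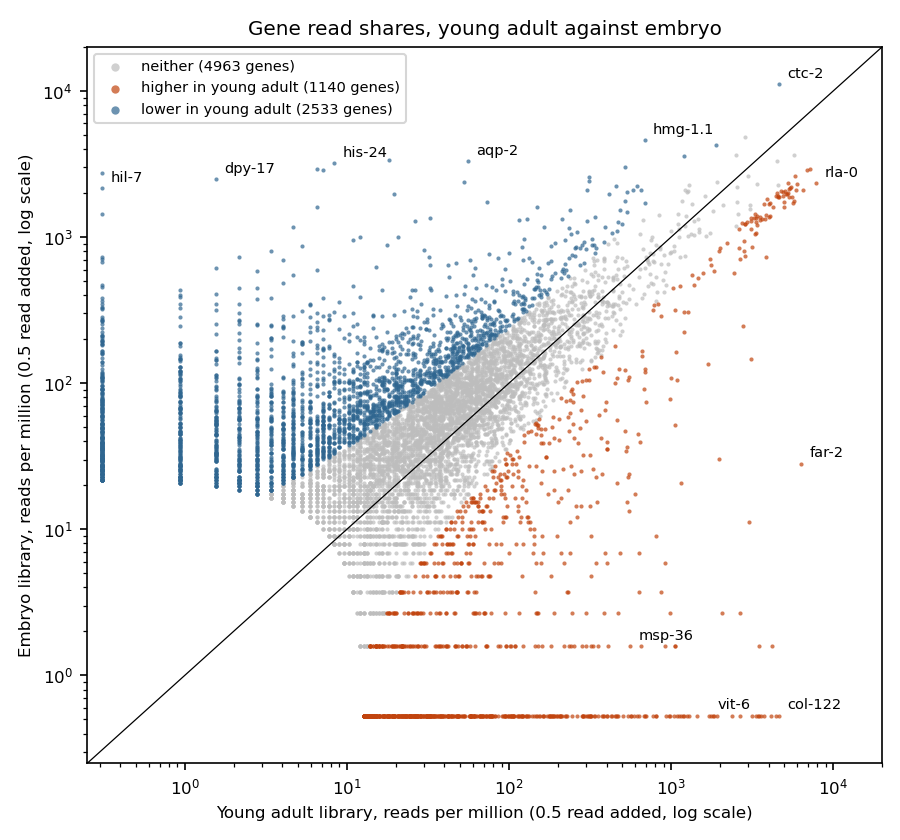
Reads per 1000000 in the young adult library (x axis) against the embryo library (y axis) for 8636 genes, both on log scales with 0.5 read added and the diagonal marking equal shares. Genes at the far left or along the bottom had 0 reads in 1 library; vit-6 and col-122 lie at the bottom with 0 embryo reads and hil-7 at the left edge with 0 young adult reads.

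The largest gains in read share were in nutrient transport, ribosomal proteins and adult collagens. The gene far-2, which encodes a secreted protein that binds fatty acids and retinol, had 10200 reads in young adults and 26 in embryos and was 229-fold higher (156 to 351). The ribosomal stalk gene rla-0 had 12668 reads in young adults and 2204 in embryos and was 3.36-fold higher (3.21 to 3.52). The collagen genes col-122, col-80 and col-178 had 7475, 7170 and 6684 reads in young adults and 0 each in embryos. The largest losses were in genes of several kinds, a collagen among them. Mitochondrial ctc-2, a subunit of cytochrome oxidase, had 7467 reads in young adults and 10499 in embryos and was 2.41-fold lower (2.33 to 2.48), a call not made with TMM factors. The chromatin gene hmg-1.1, which encodes an HMG box protein, had 1107 reads in young adults and 4359 in embryos and was 6.74-fold lower (6.3 to 7.2). The collagen gene sqt-3 had 29 reads in young adults and 3191 in embryos and was 188-fold lower (131 to 282). The aquaporin gene aqp-2 had 89 reads in young adults and 3124 in embryos and the caveolin gene cav-1 had 11 reads in young adults and 2719 in embryos, and they were 60.1-fold lower (48.6 to 75) and 423-fold lower (236 to 848).

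Setting aside collagens, major sperm proteins and yolk proteins, the genes with the interval bound farthest from 1 on the higher side included genes of the uterus and the eggshell. The invertebrate lysozyme gene ilys-5 had 3075 reads in young adults and 0 in embryos. The gene dct-16 had 4282 reads in young adults and 2 in embryos and was 1251-fold higher (346 to 10337). The uterine lumen genes ule-4 and ule-3 had 2009 and 1237 reads in young adults and 0 in embryos. In the WBcel235 annotation ule-3, at chromosome V from 10793798 to 10794924, lies close to D1054.10, at chromosome V from 10791975 to 10792875, a gene known only by its sequence name that had 1898 reads in young adults and 0 in embryos. Other genes with sequence names only, C45B2.1, K08D12.6, D1086.10, Y37D8A.19 and Y62H9A.5, had between 1291 and 3315 reads in young adults and at most 2 in embryos. On the lower side stood the linker histone gene hil-7 with 0 reads in young adults and 2032 in embryos and the lectin gene clec-266 with 0 reads in young adults and 1344 in embryos. Among genes with sequence names only, C35E7.5 had 2 reads in young adults and 580 in embryos, Y65B4BM.3 had 1 read in young adults and 410 in embryos, and C08B6.4, C08F1.10, T03G6.1 and K04H4.2 had 0 in young adults and between 252 and 302 in embryos.

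Major sperm proteins and small sperm-specific classes were called higher in young adults without exception, and other sperm genes in part. Major sperm proteins, which drive the crawling of nematode sperm and trigger oocyte maturation, had 11720 reads in young adults and 3 in embryos. All 26 compared members were called higher, all 26 had under 20 embryo reads, and the median log2 ratio was 8.83 (6.54 with members at 0 embryo reads set to their bound). The member msp-36 had 898 reads in young adults and 1 in embryos and msp-59 had 869 reads in young adults and 0 in embryos; members are near-identical, so single values are uncertain. Small sperm-specific classes such as ssp and ssq gave the same picture, in that 20 of 20 compared genes were called higher and 0 lower; ssp-10 had 362 reads in young adults and 0 in embryos. Among genes with known work in sperm formation and fertilization 11 of 17 compared genes were called higher and 1 lower (12 higher and 0 lower with TMM factors). The sperm chromatin gene spch-1 had 331 reads in young adults and 0 in embryos and gipc-2 had 322 reads in young adults and 0 in embryos. The member called lower was spe-39, a vesicle trafficking gene also used outside sperm, with 13 reads in young adults and 31 in embryos and a share 4.08-fold lower (2.07 to 8.49), not called with TMM factors. Of the 26 major sperm protein genes 17 lie on chromosome IV and 9 on chromosome II, and none on X.

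Yolk and eggshell genes made up the female side. The 6 vitellogenins, yolk lipoproteins made in the intestine for oocytes, had 8918 reads in young adults and 0 in embryos. The member vit-6 had 2769 reads in young adults and 0 in embryos and was at least 539.5-fold higher, and vit-2 had 2343 reads in young adults and 0 in embryos. Among eggshell and oocyte genes 15 of 36 compared genes were called higher and 4 lower, with a median log2 ratio of 0.79 (20 higher and 2 lower with TMM factors). The permeability barrier genes perm-4 and perm-2 had 1939 reads in young adults against 0 in embryos and 1715 reads in young adults against 1 in embryos; the annotation places them next to each other on chromosome IV, perm-4 from 1121494 to 1125107 and perm-2 from 1126790 to 1128865. The chitin-binding eggshell gene cpg-2 had 1753 reads in young adults and 99 in embryos and was 10.4-fold higher (8.45 to 12.8). In the other direction the decapping gene dcap-1 had 24 reads in young adults and 98 in embryos and the gene of the exchange factor VAV-1 had 10 reads in young adults and 51 in embryos.

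Germ granule and germline RNA genes also leaned to the young adult. In this list 13 of 40 compared genes were called higher and 6 lower, with a median of 0.35 (16 higher and 2 lower with TMM factors). P granules are RNA-protein bodies of germ cells, and their genes glh-1 and pgl-3 had 388 reads in young adults against 25 in embryos and 183 reads in young adults against 12 in embryos, 9.07-fold higher (6.05 to 14.2) and 8.91-fold higher (4.98 to 17.6). The cold shock domain family split by member. The genes cey-2 and cey-3 had 4317 reads in young adults against 669 in embryos and 1703 reads in young adults against 298 in embryos and were 3.77-fold higher (3.48 to 4.1) and 3.34-fold higher (2.95 to 3.79), while cey-1 had 194 reads in young adults and 807 in embryos and was 7.12-fold lower (6.08 to 8.37). Argonaute genes, which carry small RNAs to their targets, split too: 6 of 18 compared genes were called higher and 3 lower (9 higher and 2 lower with TMM factors). The gene wago-2, a pseudogene in the WBcel235 annotation, had 64 reads in young adults and 0 in embryos, while nrde-3, which takes small RNAs into nuclei of somatic cells, had 14 reads in young adults and 139 in embryos and was 17-fold lower (9.79 to 31.9). The microRNA Argonaute alg-1 had 1 read in young adults and 21 in embryos.

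Few meiosis genes were called. In this list 1 of 34 compared genes were called higher and 2 lower, with a median log2 ratio of 0.18 against -0.71 for all genes (10 higher and 0 lower with TMM factors). The crossover gene cosa-1 had 50 reads in young adults and 3 in embryos and was 9.74-fold higher (3.15 to 48.8). The axis gene him-3 had 198 reads in young adults and 48 in embryos and was 2.41-fold higher (1.75 to 3.38), called with TMM factors alone.

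Maternal cell fate determinants, whose RNA is made in the adult gonad and used in the egg, were mostly not called. In this list 2 of 29 compared genes were called higher and 8 lower (4 higher and 3 lower with TMM factors), with a median of -0.901. The lower share with library totals was close to the 29.3% of all compared genes. The translational repressor puf-3 had 373 reads in young adults and 55 in embryos and was 3.96-fold higher (2.98 to 5.36), and puf-5, of the same family, was 3.2-fold higher (2.62 to 3.96). The zinc finger gene pos-1 had 622 reads in young adults and 679 in embryos and was not called, at 1.87-fold lower (1.67 to 2.09). The beta-catenin gene sys-1 had 21 reads in young adults and 91 in embryos and was 7.41-fold lower (4.57 to 12.5).

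Transcription factors of the zygotic genome stood at the other end. Of 28 compared tissue and patterning factors 26 were called lower and 0 higher, and 26 had under 20 reads in young adults; the median log2 ratio was -4.44, or -3.86 with members at 0 set to their bound (0 higher and 21 lower with TMM factors). The muscle factor hlh-1, the MyoD homologue, had 2 reads in young adults and 77 in embryos and was 65.9-fold lower (17.6 to 554). The neuronal factor cnd-1, a NeuroD homologue, had 0 reads in young adults and 33 in embryos. The morphogenesis factor die-1 had 15 reads in young adults and 192 in embryos and was 21.9-fold lower (12.9 to 39.9). The exceptions were pal-1 and the Hox gene mab-5, neither called; mab-5 was chosen after its values were seen. Homeobox genes named ceh gave 24 lower and 0 higher of 27 (0 higher and 18 lower with TMM factors). The Distal-less homologue ceh-43 had 1 read in young adults and 178 in embryos, and the Pbx homologue ceh-20 had 11 reads in young adults and 270 in embryos and was 42-fold lower (23.1 to 85.1). The read minimum was passed by 4 T-box genes and 5 hlh genes. All 4 T-box genes were called lower, 3 of them also with TMM factors, and all 5 hlh genes were lower under both scalings. Among the hlh genes the E protein gene hlh-2, partner of many tissue factors, had 12 reads in young adults and 257 in embryos.

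Nuclear hormone receptors, a family expanded in nematodes, were closer to the background, in that 1 of 61 compared genes were called higher and 27 lower (1 higher and 10 lower with TMM factors); their median was -1.73. The epidermal receptor nhr-25 had 0 reads in young adults and 21 in embryos, while nhr-114 had 237 reads in young adults and 42 in embryos and was 3.3-fold higher (2.37 to 4.7). The fat metabolism receptor nhr-49 had 118 reads in young adults and 229 in embryos and was 3.32-fold lower (2.65 to 4.18), not called with TMM factors.

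Genes of ubiquitin ligase adaptors were mostly lower in young adults. F-box proteins pick the targets of SCF ligases and SKR proteins link them to the cullin. Of 67 compared fbx genes 48 were called lower and 1 higher (3 higher and 47 lower with TMM factors), 39 had 0 reads in young adults, and the median log2 ratio was -6.45, or -3.997 with those at 0 set to their bound. Of the 48 lower genes 33 lie on chromosome II. Most of the 67 compared fbx genes lie there, namely these 33 and 3 that were called neither way. The gene fbxc-51, on chromosome II, had 0 reads in young adults and 307 in embryos; fbxb-66 on chromosome I had 0 reads in young adults and 173 in embryos. Among the exceptions, fbxa-72 had 113 reads in young adults and 5 in embryos and was 13.2-fold higher (5.5 to 41.5), and fbxa-215 had 283 reads in young adults and 213 in embryos and was not called. Of 18 skr genes 13 were lower and 1 higher (2 higher and 12 lower with TMM factors). The genes skr-7, skr-8 and skr-9 had 33 reads in young adults against 948 in embryos, 0 reads in young adults against 443 in embryos and 0 reads in young adults against 359 in embryos, and skr-8 and skr-9 lie side by side on chromosome IV, so shared reads between them are possible. The core subunit skr-1 had 451 reads in young adults and 837 in embryos and was 3.17-fold lower (2.83 to 3.57), not called with TMM factors. The embryonic sdz genes, named for their dependence on the maternal factor SKN-1, gave 8 lower and 0 higher of 10, with 0 reads in young adults and 198 in embryos for sdz-28. The others were sdz-27, with 162 reads in young adults and 38 in embryos, 2.49-fold higher (1.74 to 3.65), called higher with TMM factors alone, and sdz-8, with 15 reads in young adults and 20 in embryos, called under neither scaling.

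**Figure D2:**
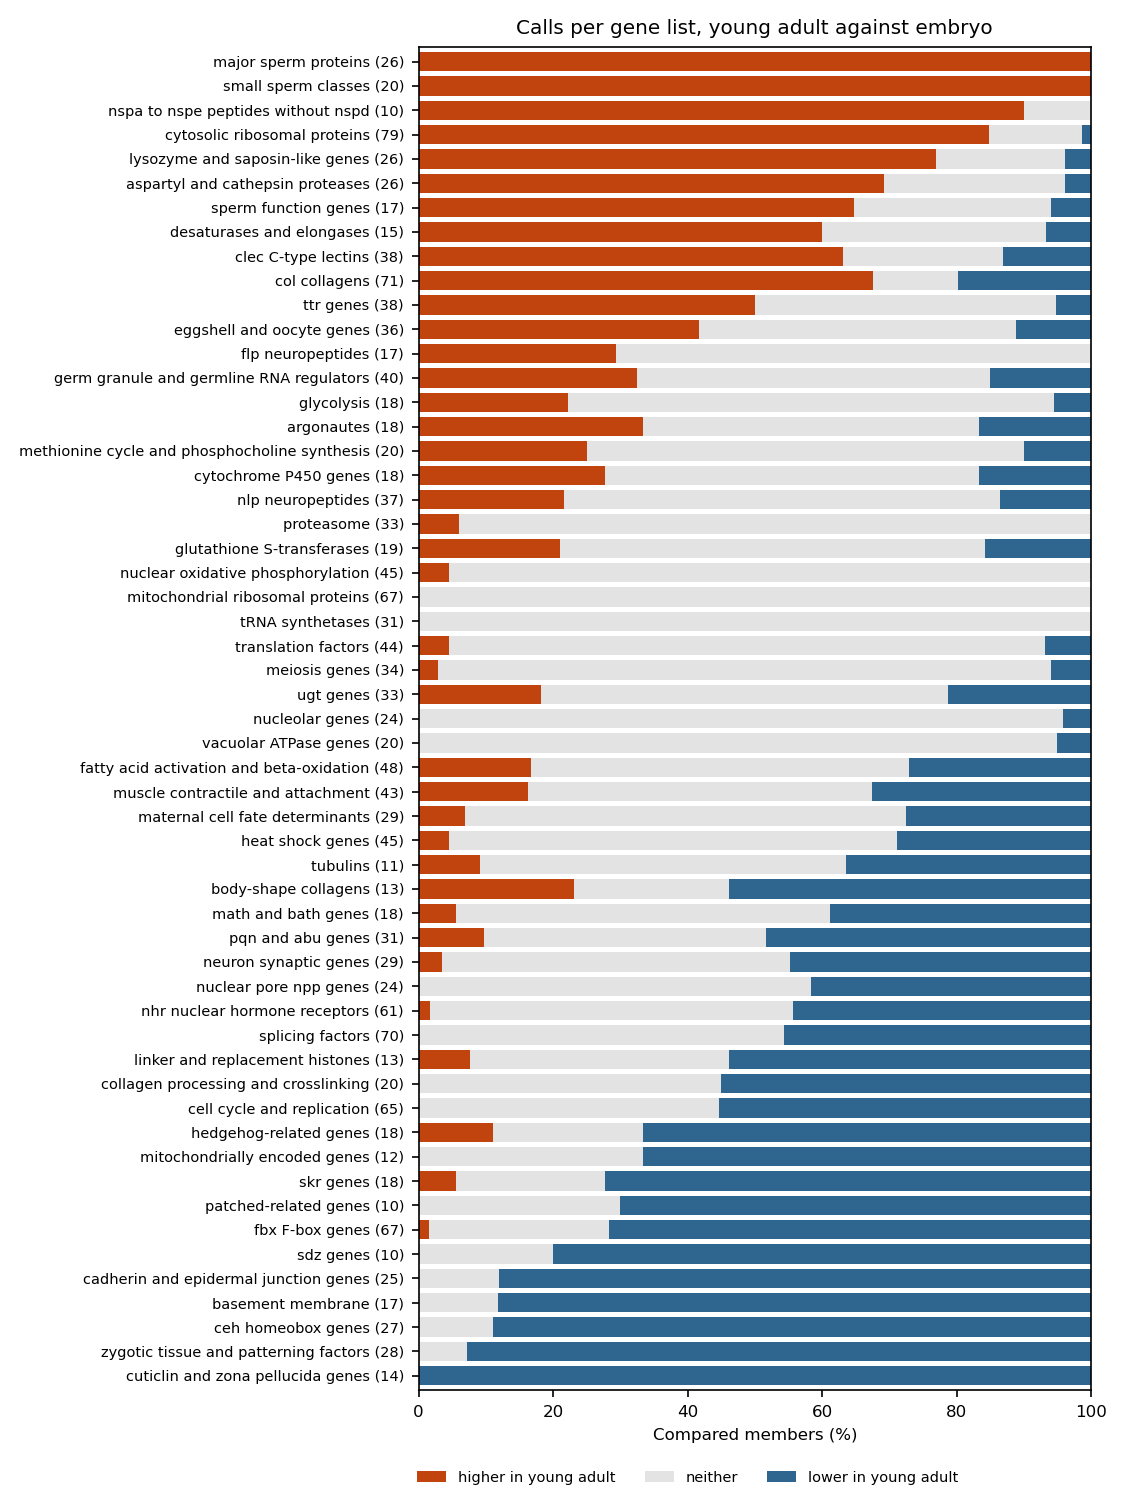
Share of compared members called higher, neither or lower in young adults (x axis, percent) for the gene lists with 10 or more compared members, number in brackets. Lists are ordered by the share called higher minus the share called lower, with calls from library totals. Major sperm proteins and small sperm classes lie at the top with all 26 and all 20 members higher. Cuticlins (14 of 14 lower) and zygotic tissue and patterning factors (26 of 28 lower) lie at the bottom. With TMM factors the muscle, beta-oxidation, heat shock, vacuolar ATPase, mitochondrial ribosomal, translation factor and nucleolar lists change the sign of their median.

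Genes of chromatin and division were called lower more often than higher under both scalings. All compared genes had 13.2% higher and 29.3% lower with library totals, and 19.3% higher and 17.4% lower with TMM factors. With TMM factors the lower shares of histone and of cell cycle genes were above that 17.4%. Those of nuclear pore genes and of splicing and other RNA-binding genes were below it. Of 13 linker and replacement histone genes 7 were called lower and 1 higher (3 higher and 6 lower with TMM factors), and the list took 0.146% of young adult reads and 1.29% of embryo reads. The linker histone genes his-24 and hil-7 had 13 reads in young adults against 3015 in embryos and 0 reads in young adults against 2032 in embryos, 397-fold lower (232 to 746) and at least 1159-fold lower. The H2A.Z gene htz-1 had 505 reads in young adults and 2415 in embryos and was 8.18-fold lower (7.43 to 9.02). The H3.3 gene his-72 had 486 reads in young adults and 1992 in embryos and was 7.01-fold lower (6.35 to 7.76). The centromeric histone relative cpar-1 ran the other way with 45 reads in young adults and 5 in embryos, 5.26-fold higher (2.1 to 17).

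Of 65 cell cycle and replication genes 36 were called lower and 0 higher, with a median of -1.46 (2 higher and 14 lower with TMM factors). The cyclin gene cyb-3 had 665 reads in young adults and 1857 in embryos and was 4.78-fold lower (4.37 to 5.23), and the ribonucleotide reductase gene rnr-2 had 549 reads in young adults and 1284 in embryos and was 4.0-fold lower (3.62 to 4.43). The cyclin D gene cyd-1 had 3 reads in young adults and 92 in embryos and the CDK inhibitor gene cki-1 had 9 reads in young adults and 267 in embryos, and cyd-1 was 52.5-fold lower (17.4 to 259). The B-type cyclin gene cyb-2.2 had 439 reads in young adults and 170 in embryos and was 1.51-fold higher (1.26 to 1.81), called with TMM factors alone. Of 24 nuclear pore genes 10 were lower and 0 higher, and 2 lower with TMM factors. Of 70 splicing and other RNA-binding genes 32 were lower and 0 higher (3 higher and 10 lower with TMM factors). The SR protein gene rsp-6 had 389 reads in young adults and 990 in embryos and was 4.35-fold lower (3.87 to 4.91). The tissue-specific splicing regulators fox-1 and sup-12, both on X, had 1 read in young adults against 63 in embryos and 8 reads in young adults against 174 in embryos and were 108-fold lower (18.7 to 4324) and 37.2-fold lower (18.5 to 87.6).

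Most genes of epidermal junctions and of basement membranes were called lower in young adults. Of 25 cadherin, junction and epidermal genes 22 were called lower and 0 higher (0 higher and 17 lower with TMM factors), with a median of -3.49. The alpha-spectrin gene spc-1 had 31 reads in young adults and 276 in embryos and was 15.2-fold lower (10.5 to 22.9), and the p120 catenin gene jac-1 had 0 reads in young adults and 36 in embryos. The same list holds crt-1, the calreticulin gene of the endoplasmic reticulum, with 120 reads in young adults and 723 in embryos and a share 10.3-fold lower (8.49 to 12.6). Of 17 basement membrane genes 15 were lower and 0 higher (1 higher and 9 lower with TMM factors). The laminin gene lam-3 had 1 read in young adults and 101 in embryos, and the type IV collagen gene let-2 had 121 reads in young adults and 307 in embryos and was 4.34-fold lower (3.51 to 5.4). The others were the collagen XVIII gene cle-1, with 87 reads in young adults and 27 in embryos and a share 1.88-fold higher (1.21 to 3.02), called higher with TMM factors alone, and the fibulin gene fbl-1, with 25 reads in young adults and 14 in embryos, called under neither scaling.

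Different collagen genes held the reads in young adults and embryos. Genes named col took 6.53% of young adult reads and 0.327% of embryo reads, and of 71 compared 48 were called higher and 14 lower, with 9 called neither way (52 higher and 9 lower with TMM factors). The median log2 ratio was 5.85, or 3.94 with members at 0 set to their bound; 50 of the 71 had under 20 embryo reads. The 48 higher genes had 103645 reads in young adults and 54 in embryos, 33 of them with 0 in embryos. The 14 lower genes had at most 34 reads each in young adults and 2416 together in embryos, among them col-165 with 0 reads in young adults and 687 in embryos and col-74 with 0 reads in young adults and 665 in embryos. On chromosome V 17 col genes were called higher and 0 lower, whereas on chromosome IV 10 were higher and 6 lower.

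Collagens named for the body shape of their mutants ran mostly the other way. Of 13 compared 7 were lower and 3 higher (4 higher and 7 lower with TMM factors), with 376 reads in young adults and 9073 in embryos. The genes dpy-14, dpy-17 and sqt-3 had 0 reads in young adults against 2600 in embryos, 2 reads in young adults against 2335 in embryos and 29 reads in young adults against 3191 in embryos, at least 1483-fold lower, 1997-fold lower (552 to 16502) and 188-fold lower (131 to 282). The higher members included bli-6, known for blistering of the adult cuticle, and dpy-4, with 120 reads in young adults against 0 in embryos and 45 reads in young adults against 0 in embryos. Some collagens are alike in sequence, so the value of a single member can include reads of another.

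**Figure D3:**
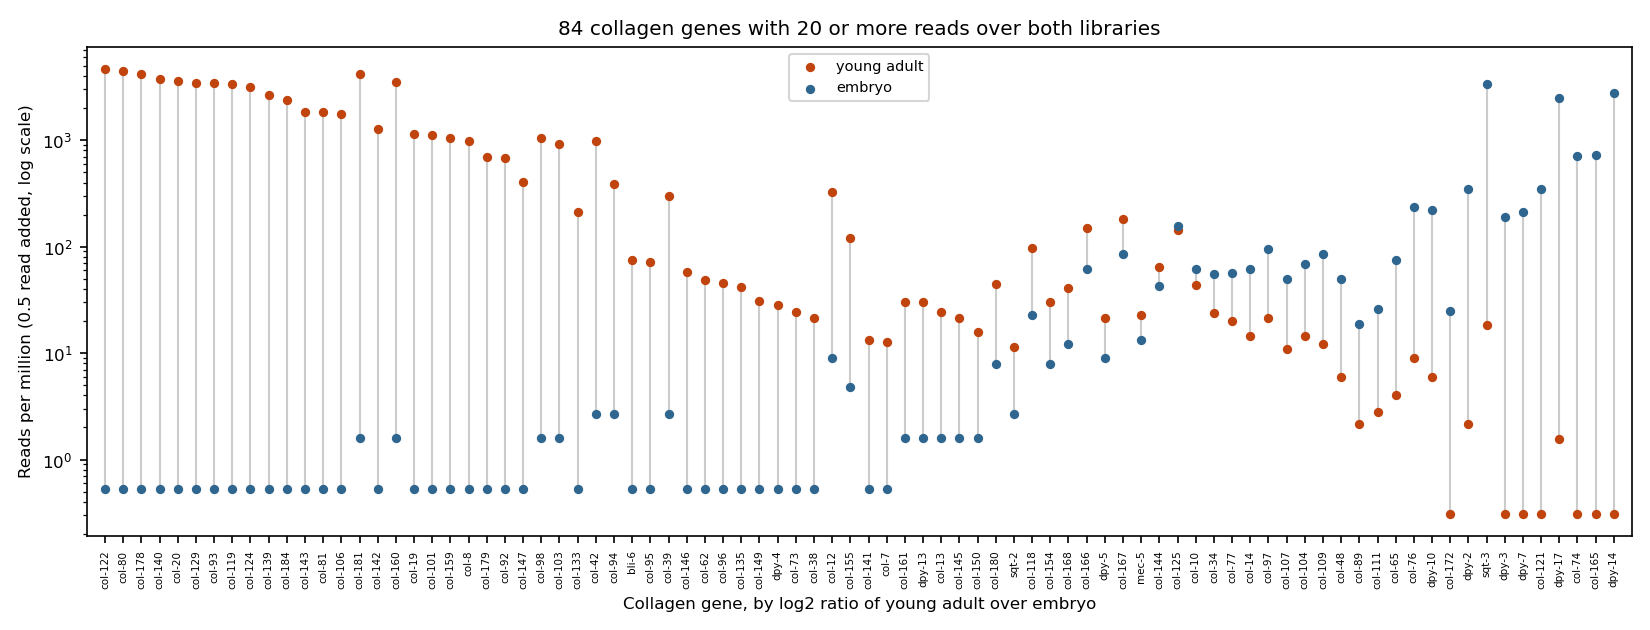
Reads per 1000000 (y axis, log scale, 0.5 read added) of 84 collagen genes in the young adult library and the embryo library, ordered along the x axis by log2 ratio with a line joining the points of a gene. The left run of genes is at the floor in embryos and the right run, ending in col-74, col-165 and dpy-14, is at the floor in young adults.

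Other genes of the cuticle were mostly lower in young adults. Cuticlin and zona pellucida domain genes, which encode non-collagen matrix proteins, had 23 reads in young adults and 4756 in embryos, and all 14 compared members were lower under both scalings and had under 20 young adult reads. The gene cut-2 had 10 reads in young adults and 2741 in embryos and was 469-fold lower (255 to 979). The genes cut-3 and noah-1 had 0 reads in young adults against 640 in embryos and 0 reads in young adults against 429 in embryos. Genes that modify and crosslink collagen gave 11 lower and 0 higher of 20 (2 higher and 10 lower with TMM factors); pdi-2, a subunit of prolyl hydroxylase, had 839 reads in young adults and 2831 in embryos and was 5.77-fold lower (5.34 to 6.24). Astacin metalloproteases ran the other way by count, with 4 higher and 1 lower of 7 under both scalings. The reads of the whole family did not, with 242 (0.015%) in young adults and 343 (0.0364%) in embryos. The 4 higher members had 27 to 64 reads in young adults and at most 1 in embryos. The lower member hch-1 had 0 reads in young adults and 266 in embryos, while nas-11 and nas-20 had 64 and 52 reads in young adults and 0 each in embryos. Hedgehog-related genes, secreted proteins of which many act in the epidermis and cuticle, gave 12 lower and 2 higher of 18 (3 higher and 11 lower with TMM factors). The genes wrt-1 and wrt-2 had 1 read in young adults against 307 in embryos and 0 reads in young adults against 185 in embryos, and grd-3 had 312 reads in young adults and 0 in embryos. Patched-related genes gave 7 lower and 0 higher of 10 (0 higher and 6 lower with TMM factors), with 1 read in young adults and 137 in embryos for ptr-4.

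Muscle genes showed no common direction. Of 43 compared 7 were called higher and 14 lower, and the median log2 ratio was -0.72 with library totals and 0.06 with TMM factors (10 higher and 8 lower with TMM factors). The troponin T gene tnt-2 had 971 reads in young adults and 16 in embryos and was 35.5-fold higher (21.7 to 62.3), and the troponin I gene unc-27 had 1124 reads in young adults and 69 in embryos and was 9.52-fold higher (7.46 to 12.3). The troponin C gene pat-10 had 4729 reads in young adults and 1199 in embryos and was 2.31-fold higher (2.16 to 2.46). The attachment gene deb-1, which encodes vinculin, had 24 reads in young adults and 121 in embryos and was 8.63-fold lower (5.53 to 14).

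Genes of neurons gave mixed counts. Of 29 synaptic and axonal genes 13 were called lower and 1 higher (4 higher and 7 lower with TMM factors), with a median of -1.503. The kinesin heavy chain gene unc-116 had 68 reads in young adults and 257 in embryos and was 6.47-fold lower (4.93 to 8.58), and unc-119 had 32 reads in young adults and 199 in embryos and was 10.6-fold lower (7.3 to 16). The member called higher was tbh-1, the gene of the tyramine beta-hydroxylase that makes octopamine, with 207 reads in young adults and 0 in embryos. Of 17 FMRFamide-like peptide genes 5 were higher and 0 lower (8 higher and 0 lower with TMM factors), and their median was 1.25. The gene flp-14 had 66 reads in young adults and 3 in embryos and was 12.9-fold higher (4.21 to 64). Of 37 nlp genes 8 were higher and 5 lower (11 higher and 4 lower with TMM factors). Within the cluster on chromosome V that encodes antimicrobial peptides of the epidermis, nlp-27 had 519 reads in young adults and 4 in embryos. There nlp-28 had 123 reads in young adults and 0 in embryos, while nlp-30 had 2 in young adults and 21 in embryos. The gene nlp-31 had 41 reads in young adults and 198 in embryos and was 8.26-fold lower (5.88 to 11.9). With 42 reads in young adults and 20 in embryos, nlp-29 was not called. Both nlp-31 and nlp-29 were named outside the rule for named genes. Insulin-like genes were few, with 5 compared; ins-31 had 24 reads in young adults and 0 in embryos and ins-2 had 0 reads in young adults and 33 in embryos.

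Most lysozyme, saposin-like and protease genes of digestion were called higher in young adults, and C-type lectin and transthyretin-like genes were called higher more often than lower. Of 26 lysozyme and saposin-like genes 20 were called higher and 1 lower (21 higher and 1 lower with TMM factors); the saposin-like spp-17 had 1045 reads in young adults and 1 in embryos, and spp-13 had 0 reads in young adults and 40 in embryos. Of 26 aspartyl and cathepsin protease genes 18 were higher and 1 lower (21 higher and 1 lower with TMM factors). The intestinal protease genes asp-1 and asp-6 had 4502 reads in young adults against 230 in embryos and 2736 reads in young adults against 127 in embryos and were 11.4-fold higher (10.02 to 13.1) and 12.6-fold higher (10.5 to 15.2), and cpr-5 had 1404 reads in young adults and 3 in embryos. Of 38 C-type lectin genes 24 were higher and 5 lower (28 higher and 5 lower with TMM factors). The lectin clec-47 had 811 reads in young adults and 0 in embryos, and clec-150 had 160 reads in young adults and 0 in embryos. Against them stood clec-266 and clec-196 with 0 reads in young adults against 1344 in embryos and 0 reads in young adults against 345 in embryos, and the family as a whole took 0.438% of young adult reads and 0.509% of embryo reads. Transthyretin-like genes, a secreted nematode family, gave 19 higher and 2 lower of 38 (22 higher and 1 lower with TMM factors). The gene ttr-15 had 1704 reads in young adults and 48 in embryos and was 20.8-fold higher (15.6 to 28.3), while ttr-50 had 31 reads in young adults and 1869 in embryos and was 103-fold lower (72.4 to 152.2).

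Lipid carriers and lipid synthesis followed, with exceptions. Of 7 far genes 4 were higher and 1 lower (4 higher and 0 lower with TMM factors); far-1 had 1874 reads in young adults and 1655 in embryos and was not called. Of 9 intracellular lipid-binding lbp genes 3 were higher and 1 lower, with a median of -0.29 that turned to 0.49 with TMM factors. The genes lbp-2 and lbp-6 had 1309 reads in young adults against 8 in embryos and 1576 reads in young adults against 73 in embryos and were 95.6-fold higher (48.4 to 222) and 12.6-fold higher (9.98 to 16.2), while lbp-1 had 186 reads in young adults and 1236 in embryos and was 11.4-fold lower (9.74 to 13.3). Of 15 desaturase and elongase genes 9 were higher and 1 lower (12 higher and 1 lower with TMM factors). The stearoyl-CoA desaturase gene fat-6 had 1032 reads in young adults and 37 in embryos and was 16.3-fold higher (11.7 to 23.3), and the elongase gene elo-5 had 1017 reads in young adults and 3 in embryos. The lower member was another elongase gene, elo-4, with 6 reads in young adults and 42 in embryos.

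Fatty acid activation and beta-oxidation genes had no common direction, with 8 higher and 13 lower of 48, a median of -0.27 with library totals and 0.51 with TMM factors (17 higher and 8 lower with TMM factors). The acyl-CoA dehydrogenase gene acdh-1 had 3233 reads in young adults and 795 in embryos and was 2.38-fold higher (2.2 to 2.57), and the thiolase gene kat-1 had 767 reads in young adults and 117 in embryos and was 3.83-fold higher (3.15 to 4.7). The carnitine palmitoyltransferase gene cpt-4 had 1 read in young adults and 107 in embryos and the acyl-CoA synthetase gene acs-20 had 1 read in young adults and 78 in embryos. In the methionine cycle and phosphocholine synthesis 5 genes were higher and 2 lower of 20 (9 higher and 0 lower with TMM factors). The methyltransferase gene pmt-2, which makes phosphocholine, had 1618 reads in young adults and 101 in embryos and was 9.36-fold higher (7.66 to 11.6), and ahcy-1, the S-adenosylhomocysteine hydrolase gene, had 5012 reads in young adults and 1062 in embryos and was 2.76-fold higher (2.58 to 2.95). Detoxification families were mixed. Cytochrome P450 genes gave 5 higher and 3 lower of 18 (7 higher and 2 lower with TMM factors), ugt genes 6 and 7 of 33 (14 higher and 3 lower with TMM factors) and glutathione S-transferases 4 and 3 of 19 (8 higher and 3 lower with TMM factors). The P450 gene cyp-31A2, known for eggshell lipids, had 125 reads in young adults and 2 in embryos.

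Cytosolic ribosomal protein genes took 28.9% of young adult reads and 11.4% of embryo reads. Of 79 compared 67 were called higher and 1 lower (74 higher and 0 lower with TMM factors), and the median log2 ratio was 1.299, a smaller change per gene than in the sperm or collagen lists. The gene rpl-25.2 had 6194 reads in young adults and 691 in embryos and was 5.24-fold higher (4.84 to 5.68). The member with the largest ratio was rpl-11.1, with 5014 reads in young adults and 137 in embryos and a share 21.4-fold higher (18.1 to 25.5). The lower one, rpl-24.2, whose counterpart in yeast is a factor of ribosome assembly, had 195 reads in young adults and 333 in embryos and was 2.92-fold lower (2.44 to 3.5), not called with TMM factors. None of 67 mitochondrial ribosomal protein genes was called in either direction with library totals, and 1 was higher with TMM factors. Their median of -0.11 lay above the -0.71 of all genes and changed sign with TMM factors to 0.66. None of 31 tRNA synthetase genes was called, and 4 were higher with TMM factors.

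The elongation factor genes differed among themselves. Of 44 translation factors 2 were higher and 3 lower (5 higher and 3 lower with TMM factors), with a median of -0.37 that became 0.41 with TMM factors. The gene eef-1A.2 had 503 reads in young adults and 2285 in embryos and was 7.77-fold lower (7.05 to 8.58), while eef-2 had 4092 reads in young adults and 2081 in embryos and was not called. The cap-binding genes ife-3 and ife-4 went opposite ways, with 505 reads in young adults against 99 in embryos and 21 reads in young adults against 132 in embryos, 2.98-fold higher (2.4 to 3.74) and 10.8-fold lower (6.75 to 18). The germline initiation factor iff-1 had 2345 reads in young adults and 490 in embryos and was 2.8-fold higher (2.54 to 3.09). Of 33 proteasome genes 2 were higher and 0 lower (11 higher and 0 lower with TMM factors); rpn-6.2 had 52 reads in young adults and 0 in embryos. Heat shock genes gave 2 higher and 13 lower of 45, with a median of -0.71 with library totals and 0.07 with TMM factors (5 higher and 9 lower with TMM factors). The small heat shock gene hsp-16.41 had 51 reads in young adults and 690 in embryos and was 23.1-fold lower (17.4 to 31.4), and hsp-43 had 206 reads in young adults and 17 in embryos and was 7.08-fold higher (4.32 to 12.4).

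Respiratory chain genes differed by genome. Of the 12 protein genes of mitochondrial DNA 8 were called lower and 0 higher, with 1.70% of young adult reads and 3.75% of embryo reads, and 3 were lower with TMM factors. Of 45 nuclear genes of oxidative phosphorylation 2 were higher and 0 lower (11 higher and 0 lower with TMM factors). Mitochondrial nduo-5, a subunit of complex I, had 99 reads in young adults and 582 in embryos and was 10.1-fold lower (8.11 to 12.6), while ctc-3 had 4635 reads in young adults and 4530 in embryos and was not called. The nuclear ATP synthase gene atp-1 had 1649 reads in young adults and 420 in embryos and was 2.29-fold higher (2.06 to 2.56). The cytochrome c gene cyc-2.2 had 0 reads in embryos and was at least 29.6-fold higher. Tubulin genes, close in sequence to each other, gave 1 higher and 4 lower of 11 (2 higher and 1 lower with TMM factors); tba-4 had 120 reads in young adults and 15 in embryos and was 4.68-fold higher (2.72 to 8.62), and tba-1 had 831 reads in young adults and 1664 in embryos and was 3.43-fold lower (3.15 to 3.73), not called with TMM factors.

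The remaining lists had few calls or were small. Of 20 vacuolar ATPase genes 0 were higher and 1 lower (1 higher and 0 lower with TMM factors), with a median of -0.295 that became 0.48 with TMM factors. Of 18 glycolysis genes 4 were higher and 1 lower (10 higher and 0 lower with TMM factors), among them the enolase gene enol-1 with 1403 reads in young adults and 272 in embryos and a share 3.02-fold higher (2.65 to 3.45). Of 24 nucleolar genes 0 were higher and 1 lower (3 higher and 0 lower with TMM factors), and of 8 genes of the CCT chaperonin 1 was lower and none with TMM factors. Of 31 pqn and abu genes, named for stretches rich in glutamine and asparagine or for induction when the unfolded protein response is blocked, 3 were higher and 15 lower (5 higher and 9 lower with TMM factors). Of 18 math and bath genes, which encode adaptors of another ubiquitin ligase, 1 was higher and 7 lower (1 higher and 4 lower with TMM factors); bath-10 had 1 read in young adults and 89 in embryos. Of 7 compared genes in a cuticle list of molting (mlt) and osmotic genes 1 was higher and 4 lower under both scalings. The higher one, osm-11, a secreted co-ligand of Notch, had 98 reads in young adults and 2 in embryos. It was 28.6-fold higher (7.72 to 239.8). Of 4 genes with linc symbols, a part of the long intergenic non-coding RNA genes, 3 were lower, and none with TMM factors. By annotated gene type, 8 lincRNA genes were compared, with 1 higher and 4 lower (1 higher and 1 lower with TMM factors).

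Calls were uneven over the chromosomes. On X 50.7% of 1084 compared genes were called lower and 13.5% higher, against 26.2% lower and 13.2% higher of 7528 genes on the 5 autosomes. With TMM factors X had 35.3% lower and 18.5% higher, against 14.8% lower and 19.4% higher on autosomes. The median log2 ratio was -1.86 on X and -0.62 on autosomes. Genes on X took 7.04% of young adult reads and 9.81% of embryo reads. Among autosomes, IV and V had 18.2% and 17.6% of genes higher, and I, II and III between 9.44% and 10.97%. The X share of lower genes included his-24, clec-266, spc-1, sup-12 and wrt-2 described above, while 5 of the 6 vitellogenins, col-178 and ilys-5 are on X and were higher.

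Calls also moved with gene length. Of genes whose longest annotated transcript is under 500 nucleotides 39.6% were called higher and 13.3% lower, and of those of 4000 or more 3.13% higher and 50% lower. With TMM factors the short genes had 47.1% higher and 8.65% lower, and the long genes 4.57% higher and 27.2% lower. The median longest transcript was 921.5 nucleotides for higher genes and 1606 for lower genes, against 1363 for all compared genes with a length. Leaving out ribosomal, collagen, sperm and yolk protein genes by symbol, 33.9% of the shortest genes were higher and 50.7% of the longest were lower. Within each length class X had a larger share of lower genes than autosomes, with 16% on X against 12.6% on autosomes under 500 nucleotides, 39.3% on X against 21.2% on autosomes at 500 to 999, 51.8% on X against 24.9% on autosomes at 1000 to 1999, 66.3% on X against 34.1% on autosomes at 2000 to 3999, and 56.8% on X against 48.5% on autosomes at 4000 or more. Under 500 nucleotides X also had a larger share of higher genes, with 53.3% on X against 37.9% on autosomes. The same held at 500 to 999, with 21% on X against 19% on autosomes, and at 4000 or more, with 10.8% against 1.46%. At 1000 to 1999 and at 2000 to 3999 the share of higher genes was smaller on X, 9.19% against 11.5% and 4.07% against 4.32%. The part of RNA integrity or read length in the length trend was not tested.

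**Figure D4:**
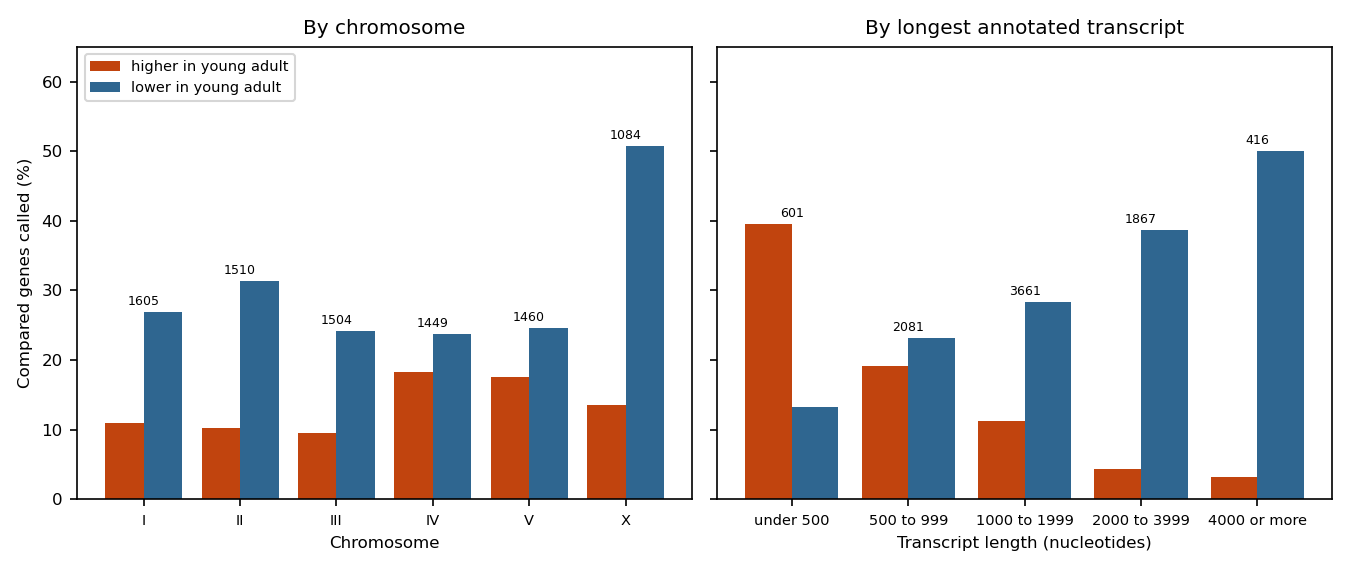
Percent of compared genes called higher or lower in young adults by chromosome (left) and by longest annotated transcript in nucleotides (right), with the number of compared genes over the bars and calls from library totals. X has 50.7% lower genes, and the share of lower genes goes from 13.3% under 500 nucleotides to 50% at 4000 or more.

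Isoforms were compared in 4653 genes with 20 or more reads in each library. Isoforms in the deposited table are either annotated transcripts or models that carry the identifier of a single read. Over all genes of the table annotated ones held 17.9% of young adult reads and 17.02% of embryo reads. The leading isoform took a median of 46.8% of a gene's reads in young adults and 40.6% in embryos. It was a different one in 502 genes, or 10.8%, but counting intervals of both leading isoforms were apart in 43 genes, or 0.924%. Of 1260 genes with 100 or more reads in each library 33, or 2.62%, met that rule. The composition distance is the part of a gene's reads that would have to change isoform to make the libraries equal. Its median was 12.1%, and 11.5% in genes with 100 or more reads in each library. Counting error also adds to this distance, most in genes with few reads spread over many isoforms. The part of counting error was not estimated, so the distance cannot be read as a difference between stages alone. Of the 43 changed genes 39 had read-named leading isoforms in both libraries, and none had annotated ones in both, so the structural difference cannot be given here for them.

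The genes with the largest composition distance among changed ones with 100 or more reads in each library were F15G9.1, dss-1, Y14H12B.1, mlp-1, C06G3.5, prmt-1, hmg-1.2, snr-2, F56A8.3, rpl-33, lmp-1 and pab-1. In F15G9.1, on X, the young adult leading isoform took 40.8% in young adults (34.3 to 47.3) and 1.14% in embryos (0.0195 to 4.21), with 95% binomial intervals in brackets here and below. The embryo leading isoform took 7.2% in young adults (4.35 to 11.5) and 72.4% in embryos (63.8 to 79.8). In prmt-1, which encodes an arginine methyltransferase, the young adult leading isoform took 46% in young adults (42.2 to 49.9) and 22.8% in embryos (19.3 to 26.8). In snr-2, which encodes an Sm protein of the spliceosome, it took 57.1% in young adults (52.8 to 61.2) and 21.6% in embryos (18.6 to 25). In hmg-1.2, an HMG box gene, the embryo leading isoform is an annotated transcript and took 1.48% in young adults (0.193 to 5.62) and 19.6% in embryos (16 to 23.7). In pab-1, the poly-A binding protein gene, the young adult leading isoform took 23.4% in young adults (21.7 to 25) and 8.27% in embryos (7.06 to 9.66). Among the 43 were the cytosolic ribosomal protein genes rpl-2, rpl-33, rpl-7, rps-20 and rps-5, which are 6.33% of the 79 in that list. Over all genes the share was 0.924% with 20 or more reads in each library and 2.62% with 100 or more. Counting intervals are narrower in genes with many reads, such as rpl-33 with 4518 in young adults and 890 in embryos. Of 27 fatty acid activation and beta-oxidation genes 7.41% met the rule.

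**Figure D5:**
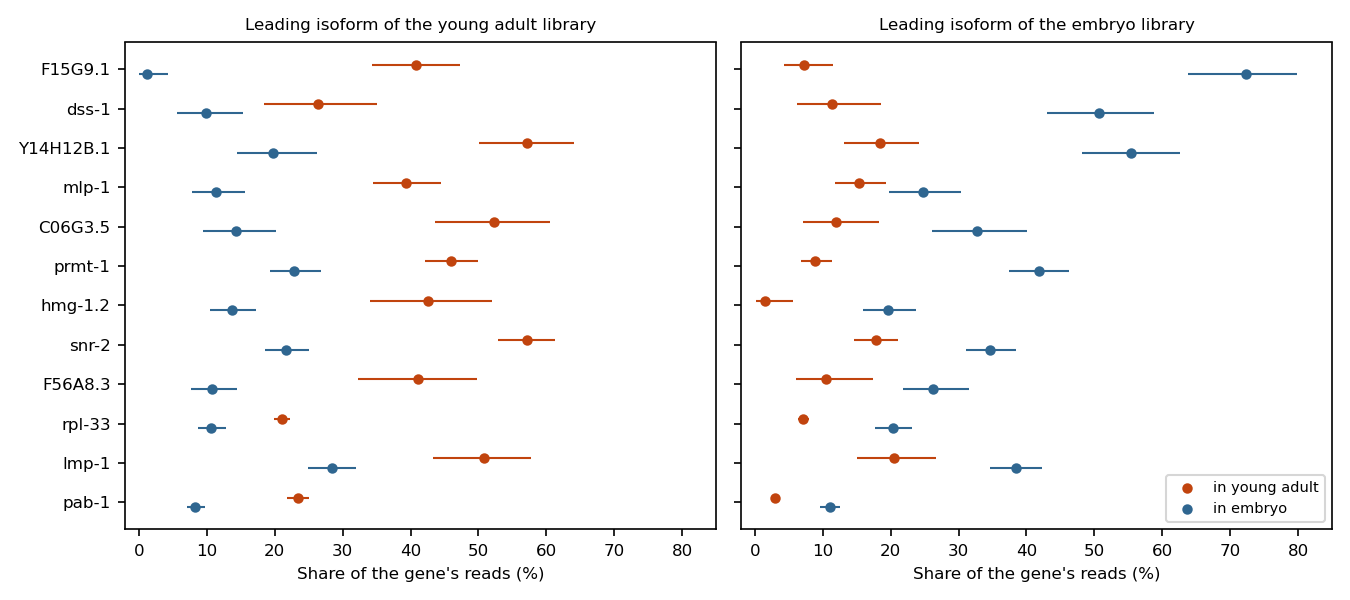
Share of a gene's reads (x axis, percent) taken by the isoform that led in young adults (left) and by the isoform that led in embryos (right) for 12 genes, with points for each library and 95% binomial intervals for counting error. In F15G9.1 the leading isoforms of young adults and embryos hold 40.8% and 72.4% of their own library's reads and 1.14% and 7.20% of the other's.

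Embryos had more isoforms per gene at equal depth when all entries were counted, most of which are read-named models. The mean number with 2 or more reads was 8.50 in young adults and 9.21 in embryos as deposited, and 6.80 in young adults and 7.997 in embryos after thinning each gene to the same number of reads. In genes with 100 or more reads in each library the order as deposited was reversed, with 15.2 in young adults and 15.1 in embryos, and after thinning it was 11.7 in young adults and 14.01 in embryos. At equal depth 3448 genes had more in embryos and 1181 more in young adults. With annotated transcripts alone the means as deposited were close, 1.85 in young adults and 1.87 in embryos. Whether read-named models stand for separate transcripts was not tested. Isoforms with 5 or more reads in 1 library and 0 in the other were few, 39 of 19661 in young adults and 56 of 20751 in embryos. In 83.6% of 48966 isoform entries the young adult and embryo values stood to each other as whole numbers no larger than 200 (tolerance 1e-04), and how the authors divided reads between isoforms and libraries is not given in the sources used here, so isoform differences could be altered by that step. With annotated transcripts alone, 2 of 1208 genes changed their leading isoform. One of them, K09G1.1 on chromosome V, chosen after its values were seen, has both transcripts in the annotation: K09G1.1b.1, with a coding length of 597 nucleotides, took 53.0% of annotated reads in young adults (43.9 to 62.9) and 0% in embryos (0 to 5.78), and K09G1.1a.1, with 633, took 44.3% in young adults and 99.2% in embryos. The transcripts start translation at different places and share the same 3′ end.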

How the data were processed

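Poly-A RNA of young adults and mixed-stage embryos was read on a MinION (R9.4.1 flow cell, MinKNOW 2.1, base-calling in Albacore 2.0.1), per the labels' protocols; minimap2 2.14 is named in the submitters' processing notes. The authors deposited estimated counts for 207067 isoform entries, of which 25422 carry a transcript name and 181645 the identifier of a read. For their genome build and the assignment of reads, the sources used here give nothing. A placeholder of 1e-08 was taken as 0. The deposited per-sample tables hold a coverage signal headed Cpm, of which only the gene symbols were used, and 10 symbols that had turned into dates were replaced from a names table.

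Estimated counts were summed per gene and rounded to whole reads. The young adult library held 1611049 reads and the embryo library 941707, so counting error is larger in embryos. Ratios of read shares carry exact conditional binomial (Clopper-Pearson) 95% intervals. No count model was fitted, since each stage has 1 library. Scaling factors came from edgeR 4.0.16 (TMM) and DESeq2 1.42.0 in R 4.3.3; Python 3.11.15 served for the rest, with scipy 1.17.1, numpy 2.4.6, pandas 2.3.3 and, for plots, matplotlib 3.10.9, and the calls were tested on simulated reads. The annotation of Ensembl 115 (WBcel235), matched by gene identifier, gave chromosomes, positions and lengths of transcripts.

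The genes compared and the 65 gene lists were chosen with earlier results of these data known. Named genes were, per list, the 3 members with most reads and the 2 with the highest and the 2 with the lowest ratio; over all genes, the 12 per direction with the largest difference in share and the 12 with the interval bound farthest from 1 among genes with 100 or more reads in the higher library; and for isoforms the 12 changed genes with the largest composition distance. Motifs in promoters and sequences were not analysed here, and a list of chemoreceptor genes was left out because its symbol pattern also took other genes. Alternatives were other scalings, read minimums, fold bounds and annotated transcripts alone.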

Additional observations from a re-analysis of the deposited data

Results flagged for a closer look

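The L1 larva library was not part of the comparison, and it held reads of genes that neither library compared here detected. There were 33 genes with 20 or more reads in L1 larvae and 0 reads in young adults and embryos. The one with most L1 reads was T22F3.11, with 1358, and the next were the collagen genes col-36, col-37 and col-2, with 312, 259 and 167.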

How the results depend on the processing

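No paired analysis was possible because each stage had 1 library. Genes called higher numbered 1140 with library totals, 638 with a 4-fold bound and 353 with annotated transcripts alone. Genes called lower numbered 2533 with library totals, 1504 with TMM factors, 1504 with DESeq2 size factors, 1321 with a 4-fold bound and 584 with annotated transcripts alone, which hold fewer reads. Leaving ribosomal protein and mitochondrial genes out of the totals gave 1297 higher and 2084 lower. Genes with a changed leading isoform numbered 43, against 2 with annotated transcripts alone and 16 where a share difference of at least 0.3 was also required. The median composition distance was 0.2997% with annotated transcripts alone. Mean isoforms per gene were 11.02 in young adults and 11.6 in embryos with 50 reads per library, 1.85 in young adults and 1.87 in embryos with annotated transcripts alone, and 4.49 in young adults and 4.78 in embryos from 5 reads per isoform. Of the named genes, 35 lost their call with TMM factors and 42 gained one. Counts of 1 library per stage limit every fold, and genes near 20 reads could pass the 2-fold bound with wide intervals.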

Other observations

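Genes seen in 1 of the compared libraries only differed in their L1 larva reads. Of the 523 compared genes with 0 reads in embryos 504 had a read in L1 larvae and 192 had 20 or more, with a median of 11; these genes held 10.1% of young adult reads. Of the 305 compared genes with 0 reads in young adults 198 had a read in L1 larvae and 16 had 20 or more, with a median of 2; these genes held 2.91% of embryo reads. Of the 10 markers of the adult body 8 had a read in L1 larvae, with 324 reads of col-119, 270 of vit-2 and 1 of vit-4, while vit-1 and vit-3 had 0; clec-47 had 811 reads in young adults and 841 in L1 larvae. The sperm gene msp-36 had 48 reads in L1 larvae. The part of adult RNA in the L1 reads was not tested.

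The small secreted nspc genes, which lie on X, were a further young adult group. Of 10 compared nsp genes outside the sperm nspd class 9 were called higher and 0 lower under both scalings, and 8 had 0 reads in embryos. The gene nspc-20 had 223 reads in young adults and 0 in embryos.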
